A study of Homo sapiens with 54 samples.

Results

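Mitochondrial ribosomal protein genes were followed through 54 LNCaP tumours. Members were the gene symbols that start with MRPL or MRPS and go on with a number and at most 1 of the letters A to C. Pseudogenes were left out, and a mean of at least 1 TPM, the relative abundance of a transcript in its library, over all tumours was asked for. The rule found 78 genes of the 60642 symbols in the table, and all 78 passed the filter on low values that left 17593 genes to test. Of the 78 genes, 51 encode proteins of the large subunit and 26 of the small subunit. The remaining gene, MRPS36, carries the name but is listed in RefSeq as KGD4, a part of the alpha-ketoglutarate dehydrogenase complex.

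LNCaP is an established human prostate cancer cell line that depends on androgens, and its clone FGC was grown under the skin of male NOD-SCID mice, 1 tumour per mouse. PRE-CX tumours (n = 9) came from mice with mock surgery and intact testes. POST-CX tumours (n = 8) were collected a week after castration, at the lowest serum prostate-specific antigen (PSA). CRPC tumours (n = 10) had regrown in castrated mice as castration-resistant cancer. ENZS (n = 12) and ENZR (n = 15) tumours grew in castrated mice that were given the antiandrogen enzalutamide at 10 mg/kg by mouth on 5 days of the week from the rise of PSA onward, and were taken while sensitive and after resistance, respectively. All tumours therefore descend from 1 cloned line, and the hosts keep innate immune cells, vessels and stroma of the mouse.

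Mitochondria hold their own ribosomes, which translate only the few mRNAs of the mitochondrial genome, all of them for subunits of the respiratory chain and the ATP synthase. The ribosomal RNAs come from the mitochondrial genome, whereas each ribosomal protein is encoded in the nucleus, made in the cytosol and imported. Many of these proteins have counterparts in bacterial ribosomes, and others are particular to mitochondria.

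Values are TPM rescaled so that the human genes of each tumour sum to 1000000, and log2 differences are on log2(rescaled TPM + 1). Before rescaling, human genes made up 70.8% to 97.5% of 1000000 in 50 tumours, and less in POST-CX mouse 91 (27.9%), POST-CX mouse 48 (59.7%), ENZR mouse 87 (12.1%) and ENZR mouse 103 (66.7%). Results that rest on these tumours are given with and without them. All 9 markers of luminal prostate cells passed the filter, and their summed level ranged from 2728 to 11915 TPM over the tumours. Of 14 markers of stroma, vessels and blood, 7 passed the filter, and 5 (PECAM1, CDH5, PTPRC, HBB and HBA1) were below 1 TPM in each of the 54 tumours. The summed level of the 14 ranged from 9.50 to 22.0 TPM in PRE-CX, 14.4 to 41.7 in POST-CX, 16.9 to 104.8 in CRPC, 22.4 to 300.1 in ENZS and 14.1 to 96.9 in ENZR.

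The members were abundant and kept a similar order of levels in the 5 groups. TPM are per transcript length, so levels can be set side by side between genes. The group means in PRE-CX ran from 17.3 TPM for MRPS31, a small-subunit protein particular to mitochondria, to 333.0 TPM for MRPL33, a counterpart of a bacterial large-subunit protein, a ratio of 19.2, and the median member stood at 68.2 TPM. Together the 78 genes made up 0.689% ± 0.0768 of the human TPM (SD) in the 9 PRE-CX tumours, 0.629% ± 0.0456 in the 8 of POST-CX, 0.668% ± 0.0571 in the 10 of CRPC, 0.60% ± 0.0434 in the 12 of ENZS and 0.613% ± 0.0435 in the 15 of ENZR. Spearman's rho of the 78 group means with those of PRE-CX was 0.95 in POST-CX, 0.95 in CRPC, 0.90 in ENZS and 0.91 in ENZR, a description across genes that share the same libraries.

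MRPL33 had lowest, median and highest values of 257, 299 and 585 TPM in PRE-CX, 256, 284 and 362 in POST-CX, 262, 318 and 575 in CRPC, 263, 379.8 and 476 in ENZS and 281, 359 and 479.8 in ENZR, and the groups overlapped. MRPL20, a further large-subunit protein with a bacterial counterpart, ranged over 279.9 to 367 TPM in PRE-CX, 283 to 363 TPM in POST-CX, 283 to 364 TPM in CRPC, 265 to 412 TPM in ENZS and 274 to 385 TPM in ENZR. MRPL51, of the mitochondria-specific part of the large subunit, ranged over 281 to 446 TPM in PRE-CX, 247 to 319 TPM in POST-CX, 257 to 384 TPM in CRPC, 222 to 315 TPM in ENZS and 229.5 to 337 TPM in ENZR. At the other end of the scale, MRPS31 ranged over 14.5 to 19.9 TPM in PRE-CX, 12.7 to 20.7 TPM in POST-CX, 16.9 to 29.9 TPM in CRPC, 16.2 to 25.3 TPM in ENZS and 15.0 to 28.0 TPM in ENZR. MRPL50 and MRPS17 were the next lowest, with group means between 20.5 and 23.3 TPM and between 23.5 and 32.5 TPM. These levels put the most and the least abundant members further apart than any group moved a member, since the largest fold against PRE-CX was 3.03.

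The mean log2 level over the 78 genes was 6.18 ± 0.14 (SD) for PRE-CX, 6.05 ± 0.13 for POST-CX, 6.13 ± 0.12 for CRPC, 5.95 ± 0.10 for ENZS and 5.98 ± 0.11 for ENZR, over 9, 8, 10, 12 and 15 tumours. The lowest, median and highest tumours were at 5.99, 6.15 and 6.39 in PRE-CX, 5.75, 6.09 and 6.14 in POST-CX, 6.01, 6.11 and 6.34 in CRPC, 5.77, 5.94 and 6.11 in ENZS, and 5.74, 6.00 and 6.14 in ENZR. In ENZS 8 of 12 tumours and in ENZR 7 of 15 lay below the lowest PRE-CX tumour, against 1 of 8 in POST-CX (mouse 91) and 0 of 10 in CRPC. All tumours of POST-CX, ENZS and ENZR lay below the PRE-CX median, and 6 of 10 in CRPC.

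**Figure D1:**
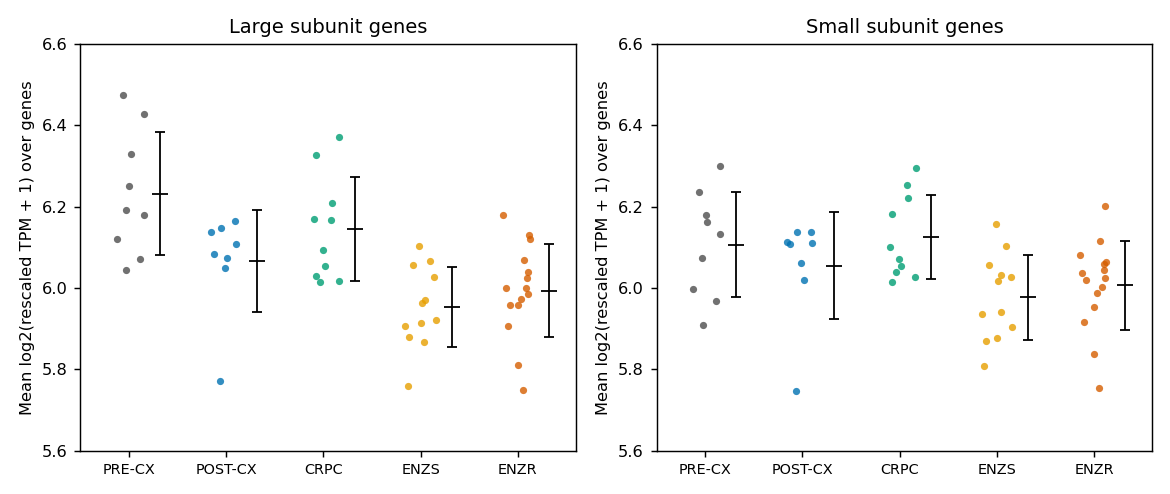
Mean log2(rescaled TPM + 1) over the 51 large-subunit genes (left) and the 26 small-subunit genes (right), 1 point per tumour, with the group mean and SD in black and a vertical axis that starts at 5.6. The large-subunit means are 6.23 in PRE-CX and 5.95 in ENZS and the small-subunit means 6.11 and 5.98, and in both panels the PRE-CX and ENZS points overlap.

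The first comparison asked what enzalutamide-sensitive tumours had lost or gained against tumours with androgens. Between ENZS and PRE-CX, limma called 45 of 78 members lower, against 13.6% of all tested genes, and 7 of 78 higher, against 47.5% of all tested genes. The median difference was -0.28 over the members and 0.29 over all tested genes, and 66 of 78 members were negative against 28.7% of all tested genes. The groups did not overlap for 11 members that were lower (2.94% of all tested genes) and for 1 that was higher, MRPS6 (9.19%). Most of the single differences were small: only MRPS18A and MRPS6 passed with a log2 difference of at least 1 in size, in this or any of the 7 comparisons.

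How many members counted as lower depended on the scale. On the deposited scale it also depended on the 4 tumours of lowest human total, which are POST-CX and ENZR tumours in the same fit. After centring each tumour on the median of its genes, which moved the median of all tested genes from 0.29 to 0.00, 69 members were called lower (28.3% of all tested genes) and 3 higher (26.6%). With TPM as deposited 12 were lower (8.18% of all tested genes) and 1 higher (30.3%), with a median of -0.31 over the members. When the 4 tumours of lowest human total were also left out of the deposited values, 46 were lower (14.5%) and 5 higher (45.3%). The median over the members was again -0.31. Of the 61 calls of members named in the text, over the 7 comparisons, 39 were lost with TPM as deposited and 8 with the deposited values without these 4 tumours.

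In ENZR, the resistant tumours, 42 of 78 members were called lower than in PRE-CX (13.8% of all tested genes) and 5 higher (44.6% of all tested genes). The median was -0.22 over the members and 0.25 over all tested genes. The groups did not overlap for 2 members that were lower, MRPL11 and MRPL42 (0.784% of all tested genes), and for 1 that was higher, MRPS6 (1.92%); MRPL11 was named after its values were seen. Centring moved the median of all tested genes from 0.25 to -0.01 and gave 64 lower (27.7% of all tested genes) and 1 higher (24.2%). TPM as deposited gave 24 lower (11.5%) and 1 higher (17.6%), with a median of all tested genes of 0.07.

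Castration alone moved fewer members. Between POST-CX and PRE-CX 22 of 78 members were lower (5.62% of all tested genes) and 3 were higher (20.6% of all tested genes), with a median of -0.13 over the members and 0.16 over all tested genes. The count rested in part on POST-CX mouse 91, the tumour with the lowest member levels of its group and 27.9% human TPM. Without this tumour 11 members were lower and 3 higher. Without it and ENZR mouse 87, 11 members were lower (4.45% of all tested genes) and 3 higher (18.9%). After centring 39 were lower (14.4% of all tested genes) and 2 higher (10.2%). With TPM as deposited limma called 2 lower (2.67%) and 0 higher (1.66%), with 21 lower and 1 higher at an unadjusted p under 0.05. The median of all tested genes moved from 0.16 to -0.03 after centring and -0.05 with TPM as deposited.

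Between CRPC and PRE-CX 6 members were lower (5.87% of all tested genes) and 4 higher (14.2% of all tested genes), so the share of members that was lower was near the background. The median was -0.09 over the members and 0.08 over all tested genes. Centring gave 9 lower (10.96% of all tested genes) and 2 higher (11.6%), and TPM as deposited 1 lower (1.87%) and 1 higher (5.55%).

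ENZS set against CRPC compares tumours under enzalutamide with castration-resistant tumours. Here 34 of 78 members were lower (6.41% of all tested genes) and 1 was higher, MRPS6 (31.4% of all tested genes), with a median of -0.18 over the members and 0.21 over all tested genes. Leaving out CRPC mouse 81, which stood high for MRPL12 and MRPL44, gave 22 lower and 0 higher. The share over all tested genes was not taken in that fit. Centring, with a median of 0.01 over all tested genes, gave 55 lower (13.9% of all tested genes) and 0 higher (11.2%). TPM as deposited called 0 (limma; 9 lower and 0 higher at an unadjusted p under 0.05), and the deposited values without the 4 tumours of lowest human total called 41 lower (7.84% of all tested genes) and 0 higher (22.4%). The 5 comparisons given so far share groups, so their counts are not independent of each other.

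The 2 relapse steps called none of the members. Between CRPC and POST-CX limma called 0 higher (0.00568% of all tested genes) and 0 lower (0.0568%), with 7 higher and 1 lower at an unadjusted p under 0.05. Between ENZR and ENZS it called 0 higher (0% of all tested genes) and 0 lower (0%), with 1 higher and 4 lower at an unadjusted p under 0.05. The difference between the steps, ENZR minus ENZS against CRPC minus POST-CX, was tested in the same fit and called 0 higher (0.0966% of all tested genes) and 0 lower (0.102%), with 2 higher and 4 lower at an unadjusted p under 0.05. The member with the smallest unadjusted p in the castration step was MRPS27, at -0.47 (limma adjusted p = 0.0772, SE 0.12).

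**Figure D2:**
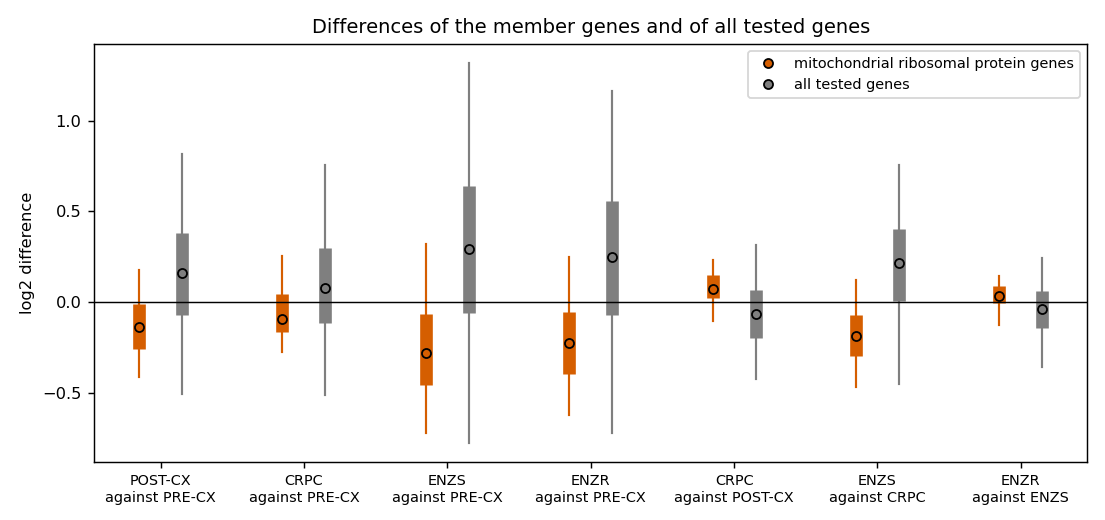
Log2 differences in the 7 comparisons for the 78 mitochondrial ribosomal protein genes and the 17593 tested genes, with the median as a point, the middle 50% as a thick bar and the 5th to 95th percentile as a line. In ENZS against PRE-CX the medians stand at -0.28 and 0.29, and in ENZR against ENZS at 0.03 and -0.04.

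Both subunits held members that fell. In ENZS against PRE-CX 29 of 51 large-subunit genes were lower and 2 higher, with a median of -0.26, and 16 of 26 small-subunit genes were lower and 5 higher, with a median of -0.28. By evolutionary origin, 27 of 44 members with a bacterial counterpart were lower and 4 higher, and 16 of 28 mitochondria-specific members were lower and 2 higher. In ENZR 25 of 51 large-subunit and 16 of 26 small-subunit genes were lower, and 1 and 4 higher. In POST-CX the counts were 12 of 51 and 9 of 26 lower, and 0 and 3 higher. Of all tested genes, 13.6% were lower and 47.5% higher in ENZS, 13.8% and 44.6% in ENZR, and 5.62% and 20.6% in POST-CX. No difference between the subunits was tested.

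**Figure D3:**
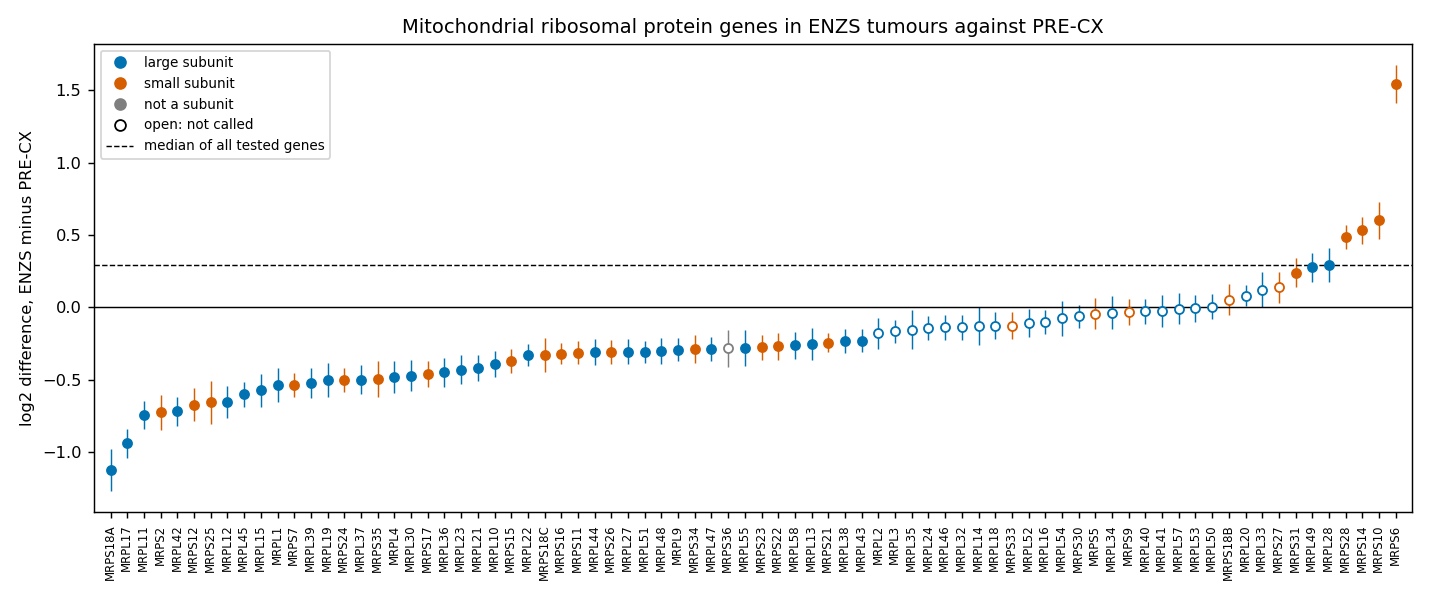
Log2 difference between ENZS and PRE-CX for each of the 78 genes, ordered by size, with the SE of the limma fit as bars. Filled points passed an adjusted p of 0.05, colours give the subunit, and the dashed line marks the median of all tested genes at 0.29, above all but 5 members. MRPS18A is at -1.12 and MRPS6 at 1.54.

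MRPS18A showed the largest fall. It is 1 of 3 human counterparts of the bacterial protein S18 and, despite the S in its name, sits in the large subunit. Its lowest, median and highest values were 40.2, 50.03 and 105 TPM in PRE-CX, 21.7, 26.2 and 32.7 in POST-CX, 22.6, 27.5 and 37.9 in CRPC, 14.3, 26.1 and 34.7 in ENZS and 13.8, 24.5 and 47.7 in ENZR. The PRE-CX tumours lay above all POST-CX, CRPC and ENZS tumours, and overlapped with ENZR only through its highest tumour. The log2 differences from PRE-CX were -1.001 (limma adjusted p = 7.68e-06, SE 0.16) in POST-CX, -0.94 (limma adjusted p = 8.81e-06, SE 0.15) in CRPC, -1.12 (limma adjusted p = 6.88e-09, SE 0.15) in ENZS and -1.05 (limma adjusted p = 1.66e-08, SE 0.14) in ENZR. The medians of POST-CX and ENZS lay side by side, and ENZS against CRPC gave -0.18 (limma adjusted p = 0.301, SE 0.14). PRE-CX mouse 112, at 104.7 TPM, stood apart from the other PRE-CX tumours, and leaving out any 1 of the 54 tumours kept the call in each of the 4 comparisons against that group. The gene (GRCh38.p14, chromosome 6, 43671202 to 43687791) overlaps RSPH9, and reads of overlapping genes could be divided between them.

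The other S18 counterparts sit in the small subunit. MRPS18C had log2 differences of -0.41 (limma adjusted p = 0.0171, SE 0.13) in POST-CX, -0.33 (limma adjusted p = 0.0149, SE 0.12) in ENZS and -0.33 (limma adjusted p = 0.0105, SE 0.11) in ENZR, with means of 74.6 ± 14.9 TPM (SD) over the 9 PRE-CX tumours and 59.5 ± 12.9 TPM over the 12 of ENZS. It overlaps ABRAXAS1, and its call was lost in POST-CX without mouse 91 and in ENZS without PRE-CX mouse 58. MRPS18B passed in none of the comparisons, with 0.05 (limma adjusted p = 0.683, SE 0.11) in ENZS and 0.12 (limma adjusted p = 0.3, SE 0.10) in ENZR, and group means between 61.6 and 69.4 TPM. After centring, MRPS18B was lower in ENZS by -0.24 (limma adjusted p = 0.044).

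The promoters of the members with the largest falls and rises are given for reference, from 250 bases before to 50 after the start in RefSeq (GRCh38.p14), 5′ to 3′ on the strand of the gene. Capitals mark matches, on either strand, to letters bound by factors of nuclear genes for mitochondria: AAGATGGC (YY1), GCGCATGC (NRF1), CCGGAAGT (GABP) and GGGGCGGG (SP1). They are MRPS18A at chr6:43687742-43688041 (minus strand), MRPL17 at chr11:6683291-6683590 (minus strand), MRPS6 at chr21:34073328-34073627 (plus strand) and MRPS10 at chr6:42217812-42218111 (minus strand).
MRPS18A: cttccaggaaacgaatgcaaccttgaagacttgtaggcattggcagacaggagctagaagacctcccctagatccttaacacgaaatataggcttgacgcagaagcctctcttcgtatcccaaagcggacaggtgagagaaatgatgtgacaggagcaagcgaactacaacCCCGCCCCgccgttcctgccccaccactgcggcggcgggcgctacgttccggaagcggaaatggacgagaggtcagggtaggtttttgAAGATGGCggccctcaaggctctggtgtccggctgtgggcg
MRPL17: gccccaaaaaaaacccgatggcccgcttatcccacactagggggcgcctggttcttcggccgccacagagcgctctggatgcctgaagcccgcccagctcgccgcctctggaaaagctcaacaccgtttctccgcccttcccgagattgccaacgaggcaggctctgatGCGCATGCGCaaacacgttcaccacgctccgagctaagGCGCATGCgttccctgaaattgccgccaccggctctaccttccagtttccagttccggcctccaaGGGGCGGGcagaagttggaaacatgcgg
MRPS6: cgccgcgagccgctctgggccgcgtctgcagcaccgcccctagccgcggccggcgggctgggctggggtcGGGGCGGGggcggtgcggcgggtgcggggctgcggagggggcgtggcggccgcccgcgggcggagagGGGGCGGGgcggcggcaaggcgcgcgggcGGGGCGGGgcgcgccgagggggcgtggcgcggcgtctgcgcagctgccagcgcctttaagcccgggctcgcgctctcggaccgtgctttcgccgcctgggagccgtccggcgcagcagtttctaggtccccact
MRPS10: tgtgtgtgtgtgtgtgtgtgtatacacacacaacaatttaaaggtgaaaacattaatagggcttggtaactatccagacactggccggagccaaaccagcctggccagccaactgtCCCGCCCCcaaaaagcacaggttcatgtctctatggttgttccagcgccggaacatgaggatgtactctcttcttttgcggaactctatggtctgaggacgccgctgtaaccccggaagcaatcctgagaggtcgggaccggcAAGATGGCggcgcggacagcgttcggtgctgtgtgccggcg

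The YY1 letters occurred in the promoters of MRPS18A, which fell, and MRPS10, which rose, at base 260 of the 300 in each case, after the annotated start. MRPL17 held 3 matches to the NRF1 letters, of which the first 2 overlap as the same site read on the 2 strands, and 1 to the SP1 letters. MRPS6 held 3 matches to the SP1 letters. A promoter entry was matched for 70 of 78 members. The YY1 letters stood in 21 of these 70 (30.0%), against 6.36% of the 10973 tested genes with an entry. The shares were 17.1% against 9.69% for the GABP letters, 8.57% against 6.498% for NRF1 and 42.9% against 44.1% for SP1. Among the 21 members with the YY1 letters 11 were lower and 2 higher in ENZS, and among all 70 members with an entry 40 were lower and 6 higher. A match is a description of the sequence, and binding was not measured.

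Among the proteins with bacterial counterparts in the large subunit, MRPL17, which lies near the exit of the peptide tunnel, had the next largest fall. Its lowest, median and highest values were 71.9, 88.7 and 113 TPM in PRE-CX, 38.8, 63.0 and 66.9 in POST-CX, 48.5, 61.5 and 82.8 in CRPC, 36.8, 47.7 and 56.6 in ENZS and 39.4, 44.8 and 74.3 in ENZR. The PRE-CX tumours lay above all POST-CX and ENZS tumours and overlapped with the highest tumours of CRPC and ENZR. The differences were -0.62 (limma adjusted p = 5.09e-05, SE 0.11) in POST-CX, -0.54 (limma adjusted p = 0.000175, SE 0.11) in CRPC, -0.94 (limma adjusted p = 8.91e-11, SE 0.10) in ENZS and -0.94 (limma adjusted p = 3.1e-11, SE 0.10) in ENZR, the latter a fold of 0.521, and -0.40 (limma adjusted p = 0.0016, SE 0.10) for ENZS against CRPC.

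MRPL12 forms the flexible stalk of the large subunit that recruits translation factors. Its values were 75.9, 94.0 and 124 TPM in PRE-CX, 62.0, 97.6 and 112 in POST-CX, 73.0, 84.0 and 136 in CRPC, 45.5, 61.7 and 72.8 in ENZS and 44.5, 70.9 and 83.3 in ENZR. POST-CX and CRPC tumours overlapped with PRE-CX, and the 12 ENZS tumours lay below both PRE-CX and CRPC without overlap. The differences were -0.04 (limma adjusted p = 0.825, SE 0.12) in POST-CX, -0.07 (limma adjusted p = 0.704, SE 0.12) in CRPC, -0.65 (limma adjusted p = 2.29e-06, SE 0.11) in ENZS and -0.51 (limma adjusted p = 7.4e-05, SE 0.11) in ENZR, and ENZS against CRPC gave -0.58 (limma adjusted p = 9.31e-05, SE 0.11). CRPC mouse 81, at 135.7 TPM, stood apart within its group.

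**Figure D4:**
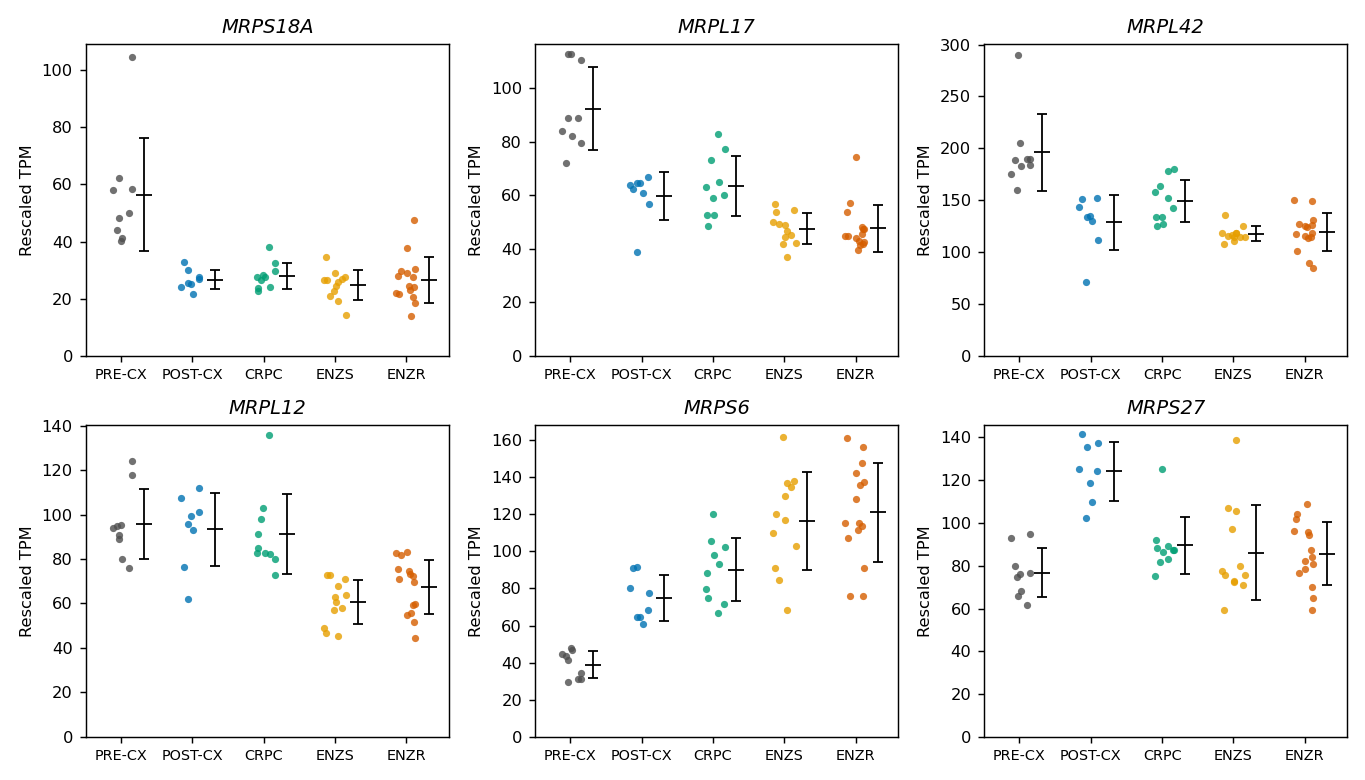
Rescaled TPM of 6 members in each of the 54 tumours, by group, with the group mean and SD in black and axes that start at 0. MRPS18A and MRPL42 are lower in POST-CX than in any PRE-CX tumour, MRPL12 is lower than PRE-CX in ENZS but not in POST-CX, MRPS6 is higher than PRE-CX in all tumours of the other groups, and MRPS27 is highest in POST-CX, where its median is 124.8 TPM.

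MRPL45, which holds the ribosome at the inner membrane beside the tunnel exit, had values of 53.8, 58.8 and 69.6 TPM in PRE-CX, 40.7, 59.3 and 66.9 in POST-CX, 48.9, 54.2 and 66.4 in CRPC, 30.4, 40.1 and 44.0 in ENZS and 30.3, 44.7 and 56.4 in ENZR. A pseudogene, MRPL45P2, had a median of 8.89 TPM and reached 13.6 TPM, so the split of reads between it and MRPL45 is uncertain. For MRPL45, ENZS tumours lay below all PRE-CX and CRPC tumours, and the POST-CX median lay above that of PRE-CX. The differences were -0.09 (limma adjusted p = 0.532, SE 0.10) in POST-CX, -0.13 (limma adjusted p = 0.311, SE 0.09) in CRPC, -0.60 (limma adjusted p = 8.06e-08, SE 0.09) in ENZS, -0.48 (limma adjusted p = 3.47e-06, SE 0.08) in ENZR and -0.47 (limma adjusted p = 5.83e-05, SE 0.08) for ENZS against CRPC.

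MRPL42, a mitochondria-specific protein of the large subunit, had values of 159, 188 and 289.7 TPM in PRE-CX, 71.1, 134 and 152 in POST-CX, 125, 147 and 179.9 in CRPC, 107, 116 and 136 in ENZS and 84.2, 118 and 149.8 in ENZR. All tumours of POST-CX, ENZS and ENZR lay below the lowest PRE-CX tumour, while CRPC overlapped. Its differences were -0.62 (limma adjusted p = 4.53e-05, SE 0.11) in POST-CX, -0.38 (limma adjusted p = 0.00644, SE 0.10) in CRPC, -0.72 (limma adjusted p = 3.42e-08, SE 0.10) in ENZS and -0.71 (limma adjusted p = 2.52e-08, SE 0.10) in ENZR.

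Other named members of the large subunit changed less. MRPL3, which reaches toward the peptidyl transferase centre, did not pass against PRE-CX, with -0.17 (limma adjusted p = 0.0717, SE 0.08) in ENZS, and for ENZS against CRPC had -0.21 (limma adjusted p = 0.0289, SE 0.08), a call that was lost without CRPC mouse 102 or ENZS mouse 49. MRPL44, a protein with a ribonuclease fold, was lower at -0.31 (limma adjusted p = 0.00257, SE 0.09) in ENZS and -0.31 (limma adjusted p = 0.00194, SE 0.09) in ENZR. MRPL58, a peptidyl-tRNA hydrolase built into the ribosome, was lower in ENZS at -0.26 (limma adjusted p = 0.0149, SE 0.09), and stood at -0.11 (limma adjusted p = 0.29, SE 0.09) in ENZR. MRPL51 was lower in ENZS at -0.31 (limma adjusted p = 0.000471, SE 0.08) and in ENZR at -0.25 (limma adjusted p = 0.0031, SE 0.07). MRPL20, MRPL33 and MRPS30, the latter a large-subunit protein despite its S, were called in none of the 7 comparisons, with 0.08, 0.12 and -0.06 in ENZS. They belong to 21 members that no comparison called.

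In the small subunit, MRPS12 lies at the decoding centre, where the counterpart in bacteria carries streptomycin resistance mutations. From lowest over median to highest, its values were 35.3, 50.6 and 57.7 TPM in PRE-CX, 24.2, 35.9 and 43.6 in POST-CX, 31.9, 40.3 and 60.7 in CRPC, 21.1, 28.2 and 35.7 in ENZS and 22.5, 30.5 and 41.2 in ENZR. All 12 ENZS and 15 ENZR tumours lay below the PRE-CX median, with overlap at the edge of the ranges. The differences were -0.42 (limma adjusted p = 0.00935, SE 0.12) in POST-CX, -0.20 (limma adjusted p = 0.244, SE 0.12) in CRPC, -0.67 (limma adjusted p = 1.38e-06, SE 0.11) in ENZS and -0.59 (limma adjusted p = 7.24e-06, SE 0.11) in ENZR. MRPS17, a small-subunit protein with a bacterial counterpart, had -0.46 (limma adjusted p = 1.67e-05, SE 0.09) in ENZS and -0.45 (limma adjusted p = 1.59e-05, SE 0.08) in ENZR. Its smaller difference in POST-CX, -0.27 (limma adjusted p = 0.0375, SE 0.10), lost its call on leaving out any 1 of 5 tumours, POST-CX mouse 91 among them.

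MRPS25 and MRPS22 are particular to mitochondria. MRPS25 had values of 48.1, 61.9 and 75.4 TPM in PRE-CX, 41.7, 64.0 and 70.7 in POST-CX, 42.0, 55.7 and 80.6 in CRPC, 21.4, 38.3 and 60.6 in ENZS and 29.4, 53.0 and 105 in ENZR. ENZR spread more widely than the other groups, from below to above the PRE-CX range. The differences were -0.66 (limma adjusted p = 0.000185, SE 0.15) in ENZS, -0.33 (limma adjusted p = 0.0416, SE 0.14) in ENZR and -0.55 (limma adjusted p = 0.00285, SE 0.15) for ENZS against CRPC, and the ENZR call was lost on leaving out any of 12 single tumours. The ENZR difference of MRPS25 passed in 4 of 11 ways of processing the values. The gene overlaps NR2C2. MRPS22 had -0.27 (limma adjusted p = 0.0121, SE 0.09) in ENZS and -0.21 (limma adjusted p = 0.0439, SE 0.09) in ENZR, of which the latter was also lost on leaving out any of 12 tumours. Its ENZR difference passed in 4 of 11 ways of processing as well.

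MRPS6 rose most, and in all groups on the rescaled values. It is the counterpart of bacterial S6, at the platform of the small subunit. Its lowest, median and highest values were 29.6, 41.4 and 47.7 TPM in PRE-CX, 60.7, 72.9 and 91.6 in POST-CX, 66.8, 90.6 and 120.1 in CRPC, 68.5, 119 and 161 in ENZS and 76.1, 116 and 161 in ENZR. Each of the 45 tumours of the other groups lay above the highest PRE-CX tumour. The differences from PRE-CX were 0.93 (limma adjusted p = 5.34e-06, SE 0.15) in POST-CX, 1.19 (limma adjusted p = 4.63e-09, SE 0.14) in CRPC, 1.54 (limma adjusted p = 1.25e-13, SE 0.13) in ENZS and 1.60 (limma adjusted p = 7.18e-15, SE 0.13) in ENZR, folds of 1.91, 2.28, 2.91 and 3.03, and ENZS lay above CRPC by 0.35 (limma adjusted p = 0.0273, SE 0.13), a call lost without any of CRPC mouse 78, CRPC mouse 81 and ENZS mouse 80, and lost after centring, with TPM as deposited and without the filter. With TPM as deposited the POST-CX difference was 0.66 (limma adjusted p = 0.117) and did not pass, while those of CRPC, ENZS and ENZR from PRE-CX did. The POST-CX difference passed in 10 of 11 ways of processing the values, among them the deposited values without the 4 tumours of lowest human total. The gene (chromosome 21, 34073578 to 34143030) spans SLC5A3, the gene of an inositol transporter, so the division of reads between them is uncertain. SLC5A3 rose as well, from 7.84 ± 3.72 TPM in PRE-CX (SD, n = 9) to 17.8 ± 6.05 TPM in ENZS (n = 12), with 1.11 (limma adjusted p = 1.01e-06, SE 0.18) in ENZS and 1.31 (limma adjusted p = 1.77e-08, SE 0.17) in ENZR. Its levels were below those of MRPS6 in each group.

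MRPS10, a small-subunit protein with a bacterial counterpart in the head of the subunit, had values of 17.6, 24.4 and 29.3 TPM in PRE-CX, 23.9, 31.6 and 36.8 in POST-CX, 20.4, 30.8 and 38.4 in CRPC, 21.6, 38.1 and 44.7 in ENZS and 21.5, 35.7 and 45.6 in ENZR. The groups overlapped, with 10 of 12 ENZS and 12 of 15 ENZR tumours above the PRE-CX median. The differences were 0.39 (limma adjusted p = 0.0319, SE 0.14) in POST-CX, 0.36 (limma adjusted p = 0.0442, SE 0.13) in CRPC, 0.60 (limma adjusted p = 6.31e-05, SE 0.13) in ENZS and 0.48 (limma adjusted p = 0.000702, SE 0.12) in ENZR. After centring, MRPS10 passed only in ENZS, at 0.31 (limma adjusted p = 0.0313), and with TPM as deposited it passed in none of the 4. The ENZS difference passed in 10 of 11 ways of processing the values, among them the deposited values without the 4 tumours of lowest human total. Leaving out single tumours lost the POST-CX call in 7 of 54 fits and the CRPC call in 11. A processed copy, MRPS10P1, was listed at up to 32.2 TPM with a median of 0 over the tumours, so the split of reads between them is uncertain.

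MRPS28, the counterpart of bacterial S1, had values of 127, 143 and 197 TPM in PRE-CX, 158, 175 and 180.2 in POST-CX, 182, 193 and 217 in CRPC, 177, 212 and 259.9 in ENZS and 139, 204 and 234 in ENZR. It was higher at 0.37 (limma adjusted p = 0.00197, SE 0.09) in CRPC, 0.49 (limma adjusted p = 2.97e-06, SE 0.08) in ENZS and 0.31 (limma adjusted p = 0.00113, SE 0.08) in ENZR, and stood at 0.17 (limma adjusted p = 0.173, SE 0.09) in POST-CX. After centring, the call held in CRPC (0.28) and was lost in ENZS (0.19, limma adjusted p = 0.0701) and ENZR (0.05). The difference passed in 10 of 11 ways of processing the values in CRPC, and in 9 of 11 in both ENZS and ENZR. Reads of MRPS28 can also be assigned to the readthrough gene TPD52-MRPS28.

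MRPS27, an RNA-binding protein of the pentatricopeptide repeat family, rose in POST-CX. Its tumours were at 61.5, 76.2 and 94.6 TPM in PRE-CX, 102, 125 and 142 in POST-CX, 75.1, 87.5 and 125 in CRPC, 59.3, 76.5 and 139 in ENZS and 59.5, 84.0 and 109 in ENZR. All 8 POST-CX tumours lay above the highest PRE-CX tumour, whereas the other groups overlapped with PRE-CX. The difference was 0.69 (limma adjusted p = 2.85e-05, SE 0.12) in POST-CX, and it was 0.22 (limma adjusted p = 0.164, SE 0.11) in CRPC, 0.14 (limma adjusted p = 0.272, SE 0.11) in ENZS and 0.15 (limma adjusted p = 0.213, SE 0.10) in ENZR. With TPM as deposited the POST-CX difference was 0.42 (limma adjusted p = 0.375), and centred it was 0.50 (limma adjusted p = 0.00128). The fall from POST-CX to CRPC given above did not pass.

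MRPS31 was higher in ENZS by 0.24 (limma adjusted p = 0.0373, SE 0.10), a call lost in 9 of the fits that left out 1 tumour, and turned to -0.05 after centring. Its copies MRPS31P4 and MRPS31P5 had medians of 3.98 and 3.79 TPM. In all, 75 symbols of pseudogenes of 34 members were in the table, of which 7 passed the filter. MRPS36, which is not a ribosomal protein, was lower at -0.55 (limma adjusted p = 0.000153, SE 0.12) in ENZR and stood at -0.28 (limma adjusted p = 0.0513, SE 0.13) in ENZS. Its difference of -0.38 (limma adjusted p = 0.0406, SE 0.14) in POST-CX lost its call in 8 of the 54 fits that left out 1 tumour, and was -0.31 (limma adjusted p = 0.121) without the 4 tumours of lowest human total.

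Some ribosomal proteins of mitochondria carry other names. Of 5 (DAP3, AURKAIP1, CHCHD1, GADD45GIP1 and PTCD3), 1 was called lower in ENZS (13.6% of all tested genes) and none higher (47.5%), with a median of -0.13. In ENZR 2 of the 5 were lower (13.8% of all tested genes) and 0 higher (44.6%). CHCHD1, a small-subunit protein, had -0.28 (limma adjusted p = 0.00182, SE 0.08) in ENZS and -0.32 (limma adjusted p = 0.000243, SE 0.07) in ENZR, and GADD45GIP1, of the large subunit, -0.25 (limma adjusted p = 0.00966, SE 0.08) in ENZR. DAP3, the GTP-binding protein of the small subunit, averaged 177 ± 30.7 TPM (SD) over the 9 PRE-CX tumours and 178 ± 16.2 TPM in ENZS (n = 12), a difference of 0.03 (limma adjusted p = 0.798, SE 0.08). No difference between these genes and the members was tested.

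The factors that work with the ribosome were also mixed. The shares over all tested genes were 13.6% lower and 47.5% higher in ENZS, and 13.8% and 44.6% in ENZR. Of 16 translation factors 5 were lower and 2 higher in ENZS (median -0.08) and 4 lower and 2 higher in ENZR. MRRF, which recycles ribosomes after termination, ranged over 53.8 to 67.3 TPM in PRE-CX, 27.2 to 54.1 TPM in POST-CX, 31.7 to 62.0 TPM in CRPC, 22.3 to 37.9 TPM in ENZS and 24.4 to 56.6 TPM in ENZR. The ENZS tumours lay below all PRE-CX tumours, and the differences were -1.01 (limma adjusted p = 6.05e-10, SE 0.12) in ENZS and -0.72 (limma adjusted p = 5.09e-07, SE 0.11) in ENZR. GUF1, a GTPase of elongation, was higher at 0.57 (limma adjusted p = 0.000203, SE 0.13) in ENZS, and the elongation factor TUFM stood at 0.01 (limma adjusted p = 0.934, SE 0.09). Of 26 genes for assembly of the ribosome or modification of its RNA, 8 were lower and 6 higher in ENZS (median -0.08), with NGRN at 0.91 (limma adjusted p = 2.78e-08, SE 0.13) and the methyltransferase METTL15 at 0.72 (limma adjusted p = 2.14e-06, SE 0.12). Of 20 aminoacyl-tRNA synthetases of mitochondria, 3 were lower and 1 higher in ENZS, so the share that was lower was near that of all tested genes. MARS2, for methionine, was at -1.27 (limma adjusted p = 1.2e-08, SE 0.17) and YARS2, for tyrosine, at -0.74 (limma adjusted p = 4.45e-09, SE 0.09). After centring, 13 of 16 translation factors, 19 of 26 assembly genes and 14 of 20 synthetases were called lower, against 28.3% of all tested genes. The balance of these lists therefore depended on the scale.

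The RNA parts of the same ribosome went the other way. The 2 ribosomal RNAs of the mitochondrial genome were higher in ENZS and ENZR. MT-RNR1, the small-subunit RNA, had lowest, median and highest values of 1836, 3614 and 4489.8 TPM in PRE-CX, 2928, 4168 and 13531 in POST-CX, 3688, 4764 and 5666 in CRPC, 5877, 9375 and 15449.7 in ENZS and 3495, 9163 and 21505 in ENZR. The ENZS tumours lay above all PRE-CX tumours, and the differences were 1.57 (limma adjusted p = 1.29e-07, SE 0.23) in ENZS and 1.48 (limma adjusted p = 2.53e-07, SE 0.22) in ENZR. MT-RNR2, the large-subunit RNA, had 1.06 (limma adjusted p = 6.28e-06, SE 0.19) and 1.01 (limma adjusted p = 8.2e-06, SE 0.18). Of the 13 mRNAs of the mitochondrial genome, 2 were higher (47.5% of all tested genes) and 0 lower (13.6%) in ENZS, with a median of 0.18. MT-ND6, 1 of the 2, was at 0.74 (limma adjusted p = 0.00493, SE 0.23). None of the 13 mRNAs was called after centring, where their median was -0.11. The libraries were made from polyadenylated RNA, in which these RNAs are captured through short or internal A stretches, so the values need not follow their total amount. When genes of the mitochondrial genome were left out of the rescaling, 42 of the 78 members were lower (12.2% of all tested genes) and 7 higher (51.1%) in ENZS.

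Of 8 genes for transcription and copying of the mitochondrial genome, 2 were lower (13.6% of all tested genes) and 0 higher (47.5%) in ENZS. TFAM, which packs and transcribes that genome, had -0.39 (limma adjusted p = 0.0128, SE 0.14) in ENZS and -0.42 (limma adjusted p = 0.00513, SE 0.13) in ENZR. POLRMT, the RNA polymerase of mitochondria, stood at 0.28 (limma adjusted p = 0.0677, SE 0.14) in ENZS against PRE-CX and was higher in ENZS than in CRPC by 0.36 (limma adjusted p = 0.028, SE 0.13).

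Markers of cell division were lower under enzalutamide. All 13 were lower in ENZS (median -1.60) and in ENZR (median -1.25) than in PRE-CX and in ENZS than in CRPC (median -1.07), whereas limma called 0 in POST-CX (median -0.33; 1 lower at an unadjusted p under 0.05) and 1 lower in CRPC. Their summed level ranged from 757.7 to 1282 TPM in PRE-CX, 331.4 to 1047 in POST-CX, 499.5 to 1298 in CRPC, 187.1 to 448.0 in ENZS and 211.2 to 984.4 in ENZR. Within ENZR, mice 104 and 75 had the highest MKI67, at 13.1 and 11.5 TPM, within the PRE-CX range of 5.04 to 25.8 TPM. Their mean log2 member levels of 5.90 and 5.94 were below the lowest PRE-CX tumour, as in 7 of 15 ENZR tumours. The lowest member levels, 5.74 and 5.80 in mice 23 and 87, went with MKI67 of 1.51 and 1.235 TPM. Mouse 98, with the lowest MKI67 of ENZR at 1.12 TPM, had a member level of 6.02. Of the 7 tested markers of stroma, vessels and blood, 5 were higher and 1 lower in both ENZS and ENZR. These are human symbols, whereas stroma and vessels are of the mouse, so they do not measure host stroma. Whether their reads came from tumour cells or from mouse RNA was not tested. Among all tested genes, 47.5% were higher and 13.6% lower in ENZS, and 44.6% and 13.8% in ENZR. The part of division, the stroma markers and the human TPM total in the differences of the members was not tested. In bulk tumours, fewer cells of a type and less RNA per cell cannot be told apart.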

How the data were processed

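RNA was extracted from 54 tumours and polyadenylated RNA was sequenced as stranded paired-end libraries. Per the methods and the submitters' notes, reads were checked with FastQC (0.11.9), trimmed with Trim Galore (0.6.5), aligned with STAR (2.7.2b) to a joint human GRCh38 and mouse GRCm38 reference and quantified with RSEM (1.3.3), which shares reads among similar transcripts. The TPM deposited by the authors are per human gene symbol, with the mouse genes dropped, and hold no read depth.

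Each tumour was rescaled to 1000000 over human symbols and log2(TPM + 1) was taken. Genes at 1 rescaled TPM or more in at least 8 tumours were fitted with limma (3.58.1, R 4.3.3) as 5 group means over 54 tumours, with a trend in the prior variance, and Benjamini-Hochberg adjustment ran over 17593 genes within each comparison. Called means an adjusted p under 0.05. Python 3.11.15 and pandas 2.3.3 were used for the tables. The fit was tested on simulated data. Groups come from the labels, which give no batch, litter or date.

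The members and gene lists were chosen with earlier results of these data known. Members named with values were a panel fixed by role, the 2 called members that rose most and the 2 that fell most in each comparison, and the 3 of highest and lowest mean. From the other lists at most the 2 called genes of largest difference per comparison were named, plus DAP3, TUFM, POLRMT and TFAM. Positions and promoters are from RefSeq (GRCh38.p14).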

Additional observations from a re-analysis of the deposited data

Results flagged for a closer look

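Within groups of up to 10 tumours, the 25 members named in the text and the mean member level were examined for a single tumour far from the others by Dixon's criterion, which chance meets in about 1 of 20 groups. Of 78 pairs of group and measure, 17 met it.

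POST-CX mouse 91, with 27.9% human TPM, was the low tumour in 6 of them, with 38.8 TPM of MRPL17, 109.7 TPM of MRPL3, 40.7 TPM of MRPL45, 17.8 TPM of MRPL50, 17.5 TPM of MRPS17 and a mean log2 member level of 5.75. In PRE-CX mouse 58 stood high for MRPL33 at 585 TPM, MRPL42 at 289.7 TPM and MRPL51 at 446 TPM, and mouse 112 for MRPS18A at 105 TPM and MRPS18B at 79.8 TPM. In CRPC, mouse 81 stood high for MRPL12 at 136 TPM and MRPL44 at 42.2 TPM, mouse 102 for MRPL3 at 187 TPM and MRPS31 at 29.9 TPM, mouse 47 for MRPL50 at 30.4 TPM and mouse 43 for MRPS27 at 125 TPM.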

How the results depend on the processing

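The 9 alternatives chosen at the start were TPM as deposited, centring on the median, rescaling without genes of the mitochondrial genome, a pseudocount of 0.1, no filter, leaving out the 2 or 4 tumours of lowest human total, fitting only the groups compared, and no variance trend. Leaving out each tumour in turn, and the deposited values without those 4 tumours, were added after seeing the data. No paired analysis was possible because no mouse number is shared between groups.

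Members called in POST-CX against PRE-CX went from 25 to 2 with TPM as deposited, 7 with those values without the 4 tumours, 41 after centring, 14 without 2 tumours and 13 without 4. In CRPC against PRE-CX the members called went from 10 to 2 with TPM as deposited, in ENZS against PRE-CX from 52 to 13, and in ENZR against PRE-CX from 47 to 25. The shares of all tested genes fell as well. In CRPC they went from 5.87% lower and 14.2% higher to 1.87% and 5.55%. In ENZS they went from 13.6% and 47.5% to 8.18% and 30.3%, and in ENZR from 13.8% and 44.6% to 11.5% and 17.6%. In ENZS against CRPC the members called went from 35 to 0 with TPM as deposited and 55 after centring. The shares of all tested genes there went from 6.41% lower and 31.4% higher to 2.71% and 6.21%, and 13.9% and 11.2%. CRPC against POST-CX went from 0 to 1, called lower, without genes of the mitochondrial genome, without 2 or 4 tumours and in the groups compared alone. In these 4 settings 0.241%, 0.194%, 0.744% and 0.313% of all tested genes were lower. With the 4 tumours also left out, the deposited values called 51 in ENZS, 45 in ENZR, 7 in CRPC and 41 in ENZS against CRPC. Of all tested genes, 14.5% were then lower and 45.3% higher in ENZS, and 13.8% and 43.0% in ENZR. The shares were 4.95% and 17.7% in CRPC and 7.84% and 22.4% in ENZS against CRPC. The cause of the other changes was not tested.

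Leaving out 1 tumour gave 14 to 27 members in POST-CX, 7 to 14 in CRPC, 49 to 53 in ENZS, 44 to 50 in ENZR, 22 to 37 in ENZS against CRPC, 0 to 1 in CRPC against POST-CX (1 without CRPC mouse 43, ENZS mouse 49 or POST-CX mouse 91), and 0 in ENZR against ENZS and in the difference of the relapse steps. Shares over all tested genes were not taken in these fits. Of 61 calls of named members, 13 were lost on leaving out at least 1 tumour. Centring turned the sign of 5 values that were called before or after it. They were MRPL20 (-0.21), MRPL50 (-0.29), MRPS18B (-0.24) and MRPS31 (-0.054) in ENZS and MRPL20 in ENZR (-0.18). Values called in neither also turned sign, among them MRPL33 (-0.17) and MRPS27 (-0.16) in ENZS. TPM hold no read depth, so precision rests on the spread between tumours.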

Other observations

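Genes for candidate regulators of the members were measured too, and whether they regulate the members here was not tested. Of 10 such genes 9 passed the filter. In both ENZS and ENZR 3 were higher than in PRE-CX (47.5% and 44.6% of all tested genes) and 1 lower (13.6% and 13.8%). MYC, a transcription factor of growth, had log2 differences of -1.69 (limma adjusted p = 9.26e-06, SE 0.31) in ENZS, -1.08 (limma adjusted p = 0.00194, SE 0.30) in ENZR and -1.44 (limma adjusted p = 0.000372, SE 0.31) for ENZS against CRPC. NRF1, a factor of nuclear genes for mitochondria, was higher at 0.45 (limma adjusted p = 0.0018, SE 0.12) in ENZS and 0.45 (limma adjusted p = 0.00123, SE 0.12) in ENZR. After centring, 0 of the candidates were higher (26.6% of all tested genes) and 5 lower (28.3%) in ENZS. GABPA was higher in POST-CX at 0.40 (limma adjusted p = 0.0147, SE 0.12).

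Of the 9 luminal markers, KLK2, an androgen-induced protease, was lower in ENZS than in PRE-CX at -2.34 (limma adjusted p = 0.00012, SE 0.52). In ENZS 3 of the 9 were higher (47.5% of all tested genes) and 4 lower (13.6%). In ENZR 2 were higher (44.6%) and 6 lower (13.8%).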
